A study of Mus musculus with 2 samples.

Results

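The genes for the translation initiation and elongation factors were taken as all protein-coding genes of GENCODE M21 whose symbol begins with Eif or Eef followed by a digit. Eif2s3x, Eif2s3y and names marked as pseudogenes (-ps) were left out, so the gamma subunit of eIF2 is not among them. The rule gave 66 genes, of which 65 were matched by identifier in the gene tables of both libraries, out of 21474 protein-coding genes matched there. Eef1akmt4 was not matched. The libraries were total RNA of hearts pooled from male and female B6NCrl mouse embryos at embryonic day 16.5. The labels call the tissue healthy and number the libraries as biological replicates 1 and 2, from separate biosamples with a shared donor identifier. The pool of replicate 2 held 41 embryos, and the size of the other pool is not stated. Each pool gave 1 library, so pool and library preparation cannot be told apart, and with 2 libraries of 1 group no test was made.

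Protein synthesis begins when initiation factors load the initiator transfer RNA on the small ribosomal subunit, bring that subunit to the capped end of the messenger RNA and let it scan to a start codon. Elongation factors then deliver each aminoacylated transfer RNA and move the ribosome along the message. Initiation is held back when stress kinases phosphorylate eIF2 or when binding proteins sequester the cap-binding protein eIF4E, and elongation is slowed when eEF2 is phosphorylated by its kinase.

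Translation factor genes were among the more abundant messages of the embryonic heart. Expressed here means a level of at least 1 TPM (corrected for transcript length and library size) in both libraries. By that measure 63 of the 65 genes were expressed, beside 59.1% of all protein-coding genes. At 100 TPM or more in both libraries stood 22 of the 65, beside 5.91% of all protein-coding genes. Their median level was 58.6 TPM, against 15.9 TPM over the 12689 expressed protein-coding genes, and 52 of them lay above that second median. Together they held 1.10% of TPM in replicate 1 and 1.14% in replicate 2 (1.12% ± 0.030, SD, n = 2). A few genes carried much of this sum: Eef1a1 made up 24.9% ± 0.127 of it, Eif1 12.1% ± 0.507 and Eif5a 9.38% ± 0.636.

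**Figure D1:**
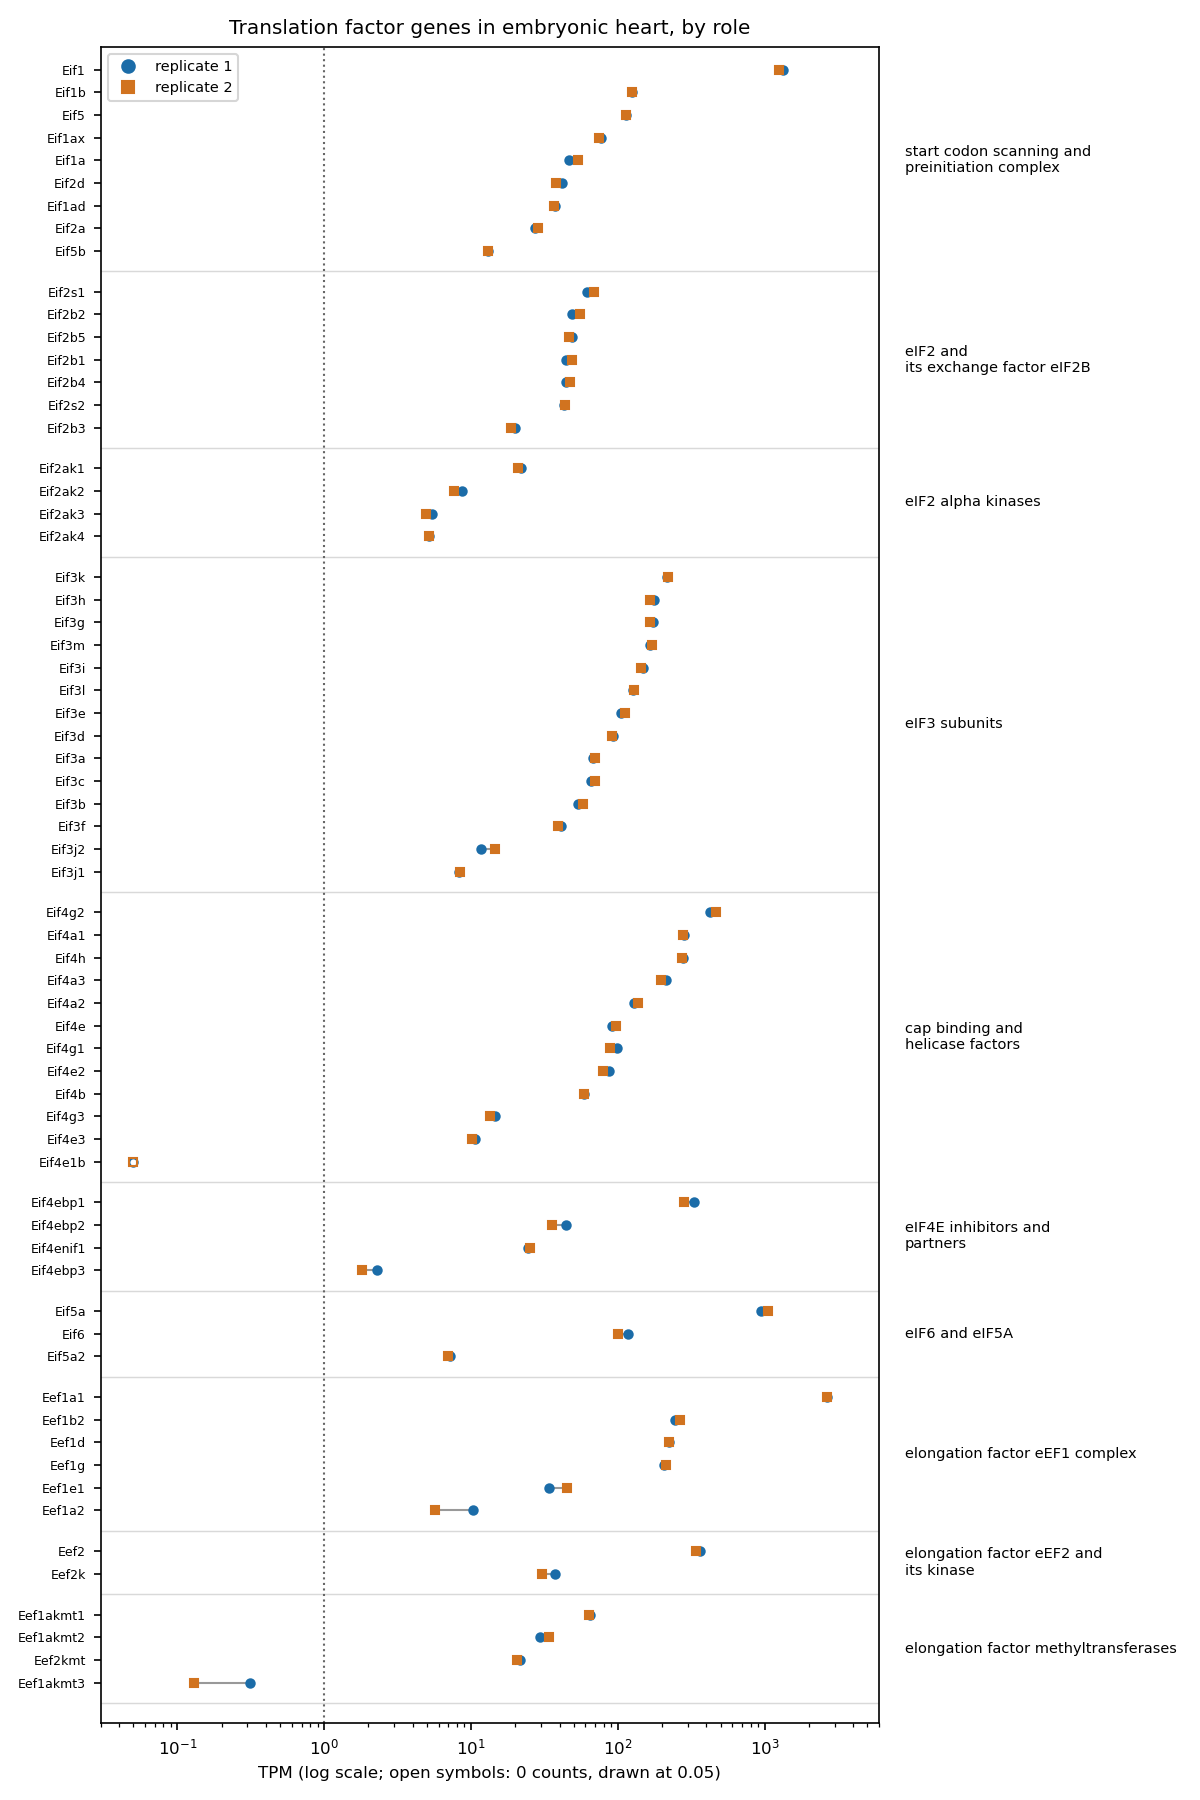
Level of the 65 translation factor genes in TPM (log scale) in replicate 1 (circles) and replicate 2 (squares), grouped by role and ordered by mean level within a role, with a dotted line at 1 TPM. The 2 libraries lie almost on each other for most genes, Eef1a1 stands highest at 2637 and 2661 TPM, and Eef1a2 shows a visible gap at 10.4 and 5.66 TPM.

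The libraries held 37160624 and 40360242 estimated counts in all, with 1.62% and 3.41% on spike-in RNAs. The 6 cardiomyocyte markers were all expressed and summed to 24837 TPM in replicate 1 and 24314 TPM in replicate 2, so the defining genes of the labelled tissue were present. Red-cell RNA was abundant as well. The 6 erythroid markers summed to 18695 TPM in replicate 1 and 15202 TPM in replicate 2, mostly from Hbb-bs (18426 and 14954 TPM). Markers of neighbouring tissue differed between the pools. The summed level of 6 lung epithelium genes was 961 and 104 TPM, that of 8 thymocyte genes 79.2 and 208 TPM, and that of 10 skeletal muscle genes 38.5 and 83.2 TPM (replicate 1 first). None of these lists had a gene at 0 in both libraries.

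The eEF1 complex brings aminoacyl-transfer RNA to the ribosome. Its GTP-binding alpha subunit comes from a pair of genes, of which Eef1a1 is the general form and Eef1a2 the form of adult heart, skeletal muscle and neurons. Eef1a1 stood at 2637 TPM in replicate 1 and 2661 TPM in replicate 2, the highest level of all 65 genes. Eef1a2 stood at 10.4 and 5.66 TPM. Eef1a1 thus exceeded Eef1a2 255-fold in replicate 1 and 470-fold in replicate 2 (log2 ratio 8.42 ± 0.62, SD, n = 2). Here and below, intervals apart means that the authors' credibility intervals of the paired genes were separate within each library. A pair counted as different when they were and the order was the same in both, as for this pair.

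The start regions of this pair are shown because messages of many translation factors begin with a C followed by a run of pyrimidines, the element through which TOR signalling controls their translation. Each window holds 20 bases before and 20 bases from the RefSeq start (build GRCm38.p6), 5′ to 3′ on the gene's strand, and capitals mark the longest pyrimidine run that begins with C. That of Eef1a1 is chr9:78481705-78481744 and that of Eef1a2 is chr2:181156996-181157035, both on the minus strand. The run of Eef1a1 is 10 bases long and begins 5 bases before the listed start. That of Eef1a2 is 7 bases long, begins 14 bases before the listed start and ends before it. Whether either message begins in its run was not tested.
Eef1a1: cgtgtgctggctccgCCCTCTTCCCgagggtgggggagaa
Eef1a2: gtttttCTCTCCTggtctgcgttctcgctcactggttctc

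Eef1a2 (chr2:181147653-181157014 in GRCm38, minus strand) also differed most between the libraries among the 62 translation factor genes with a mean of at least 100 counts. It had 549 counts in replicate 1 and 333 in replicate 2, a log2 ratio of replicate 2 over replicate 1 of -0.83 after scaling to library size. Of those 62 it was the only 1 more than 1.5-fold apart, beside 5.61% of all protein-coding genes so measured, with 2.27% higher in replicate 1 and 3.34% higher in replicate 2. Among genes of the tissues known for this form, 7 of 7 skeletal muscle markers with enough counts were more than 1.5-fold higher in replicate 2, opposite to Eef1a2. Of the 5 neuron markers with enough counts, 2 were higher in replicate 2 and none in replicate 1, with summed levels of 16.9 and 22.3 TPM over 10 genes. No cardiomyocyte marker differed by 1.5-fold, while all 5 lung epithelium markers with enough counts were higher in replicate 1, as Eef1a2 was. Their part in the Eef1a2 result was not tested, and in bulk tissue fewer cells of a type and less RNA per cell cannot be told apart.

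The exchange-factor subunits of eEF1, which reload its alpha subunit with GTP, stood close to each other by TPM of the whole gene. Eef1b2, the catalytic beta subunit, was at 246 and 264 TPM. Eef1d, the delta subunit, was at 221 and 224 TPM. Eef1g, the structural gamma subunit, was at 205 and 212 TPM. On coding transcripts alone Eef1b2 was the lowest of the 3, at 141 and 144 TPM. Eef1d was then at 212 and 217 TPM and Eef1g at 195 and 201 TPM. All 3 lay far below Eef1a1 in either library. Eef1e1, whose product sits in the multi-aminoacyl-transfer-RNA-synthetase complex, was lower, at 34.1 TPM in replicate 1 and 45.1 TPM in replicate 2, and its log2 ratio of 0.45 was the highest of the 62 genes but under the 1.5-fold line.

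Eef2, the GTPase that moves the ribosome by a codon, stood at 361 and 338 TPM. Its inhibitory kinase Eef2k stood at 37.4 and 30.6 TPM. Eef2 exceeded Eef2k 9.65-fold in replicate 1 and 11.0-fold in replicate 2 (log2 ratio 3.36 ± 0.14), with intervals apart. The start window of Eef2 (chr10:81176611-81176650, plus strand) is shown because it holds a TATAAA match, in capitals, that begins 15 bases before the listed start. The longest pyrimidine run from a C in this window was 5 bases. It reached the window's end, so its full length is not shown.
Eef2: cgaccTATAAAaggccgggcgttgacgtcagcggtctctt

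The methyltransferases that modify these elongation factors were lower. Eef1akmt1 was at 64.4 and 63.4 TPM, Eef1akmt2 at 29.3 and 34.1 TPM, and Eef2kmt at 21.4 and 20.4 TPM. Eef1akmt3 was 1 of the 2 genes under 1 TPM, at 0.31 TPM (22 counts) and 0.13 TPM (10 counts), too few counts for a comparison of the libraries.

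Eif5a, the hypusine-containing factor that relieves stalled ribosomes, stood at 949 and 1047 TPM and came after Eef1a1 and Eif1 in TPM of the whole gene. On coding transcripts alone Eif1 was below Eif5a, at 460.1 and 489 TPM against 949 and 1047 TPM. The paralogue of Eif5a, Eif5a2, stood at 7.13 and 6.91 TPM. The excess of Eif5a was 133-fold in replicate 1 and 151-fold in replicate 2 (log2 ratio 7.13 ± 0.13), with intervals apart. The enzymes that make hypusine were measured as well: Dhps was at 40.5 and 40.9 TPM and Dohh at 74.3 and 68.9 TPM. Eif6, which keeps the large ribosomal subunit from joining too early, was at 117 and 99.9 TPM.

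In the group of 9 genes set here for start codon scanning and the preinitiation complex, Eif1 was highest at 1326 and 1252 TPM. Eif1 guards start codon fidelity. Its paralogue Eif1b was at 124 and 125 TPM, and Eif1 exceeded it 10.7-fold and 9.99-fold (log2 ratio 3.37 ± 0.07), with intervals apart. Eif5, the GTPase-activating protein of eIF2, was at 113 and 114 TPM. Eif5b, the GTPase of subunit joining, was the lowest of the 9 at 13.0 and 13.1 TPM. The other 5, Eif1ax, Eif1a, Eif2d, Eif1ad and Eif2a, had mean levels between those of Eif5b and Eif5. Placement in this group does not show that a gene acts in scanning. None of the 9 had a log2 ratio between libraries over 0.22 in size.

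The genes of eIF2, which carries the initiator transfer RNA, and of its exchange factor eIF2B lay in a narrow band. Eif2s1, the alpha subunit that stress kinases phosphorylate, was the highest at 61.3 and 68.6 TPM. Eif2b2, the beta subunit of eIF2B, was at 48.9 and 54.8 TPM, and Eif2b5, its catalytic epsilon subunit, at 48.8 and 46.3 TPM. Eif2b3, the gamma subunit of eIF2B, was the lowest at 19.9 and 18.7 TPM. Across the 5 subunits of eIF2B the highest exceeded the lowest 2.45-fold in replicate 1 and 2.93-fold in replicate 2.

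The 4 kinases that phosphorylate eIF2 alpha were all expressed, all but Eif2ak1 below the 15.9 TPM median of expressed protein-coding genes. Eif2ak1, the heme-regulated kinase, was the highest at 21.9 and 20.9 TPM. Eif2ak2, activated by double-stranded RNA, was at 8.63 and 7.62 TPM. Eif2ak3, the kinase of the endoplasmic reticulum, was at 5.41 and 4.92 TPM, and Eif2ak4, which senses uncharged transfer RNA, at 5.13 and 5.15 TPM. The last 2 changed places between the libraries. Of 7 genes of the integrated stress response that these kinases start, 6 were expressed. Atf4, the transcription factor translated when eIF2 is phosphorylated, was the highest at 67.9 and 66.8 TPM, and Chac1, a target of that response, was the lowest at 0.41 and 0.33 TPM.

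eIF3 is the large scaffold that holds the initiation complex together. Eif3k was the highest of its genes at 215 and 220.4 TPM. Below it came Eif3h at 176 and 165 TPM, Eif3g at 173 and 166 TPM, and Eif3m at 164 and 170.4 TPM, whose order differed between the libraries. Eif3f was the lowest of the 12 integral subunits at 41.2 and 39.1 TPM, so that genes for subunits of 1 complex spanned 5.23-fold in replicate 1 and 5.64-fold in replicate 2. Shorter genes were higher: over the 12 subunits Spearman's rho between TPM and length was -0.89 in replicate 1 and -0.88 in replicate 2. Over the 12689 expressed protein-coding genes it was -0.32 and -0.34, and over the 63 expressed translation factor genes -0.43 in both libraries. These rho values describe genes of the same 2 libraries, share the length that enters each TPM, and carry no test.

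**Figure D2:**
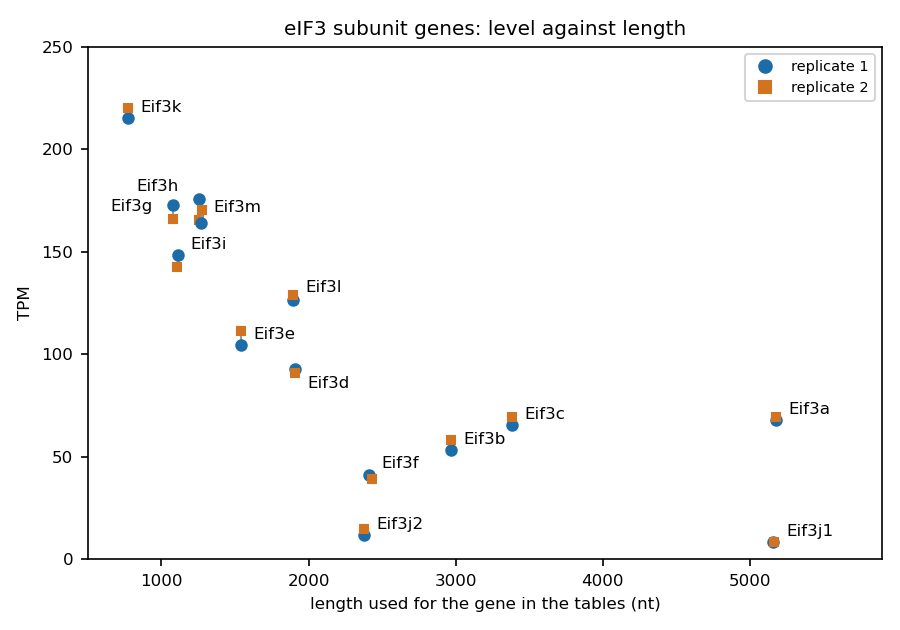
Level in TPM of the 14 eIF3 genes against the length in nucleotides that the tables use for each gene, in replicate 1 (circles) and replicate 2 (squares). Short genes such as Eif3k lie high and long ones such as Eif3a lie low, with Eif3j1 and Eif3j2 at the bottom below 15 TPM.

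Eif3j1 and Eif3j2 encode the loosely bound j subunit from near-identical copies, between which reads are hard to assign. Eif3j1 was at 8.28 and 8.46 TPM, and Eif3j2 at 11.7 and 14.6 TPM. By TPM Eif3j2 was the higher, 1.42-fold in replicate 1 and 1.73-fold in replicate 2 (log2 ratio of Eif3j1 over Eif3j2 -0.64 ± 0.20), with intervals apart. By counts not corrected for length the order was the opposite, with a log2 ratio of 0.50. Exon bases of Eif3j1 also overlap Spg11 on the other strand, and whether counting used strand is not given in the sources here.

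Start windows of 3 eIF3 genes and of Eif2b5 are shown as examples of long pyrimidine runs. They lie at chr7:108934395-108934434 (Eif3f, plus strand), chr2:105017008-105017047 (Eif3m, minus strand), chr15:79075203-79075242 (Eif3l, plus strand) and chr16:20498797-20498836 (Eif2b5, plus strand), with capitals as above. The runs of Eif3f, Eif3m and Eif2b5 begin 4, 20 and 15 bases before the listed start, and that of Eif3l at base 5 from it. The Eif3m run begins at the window's edge and ends before the listed start. For Eif3m and Eif3l that start lies 53 and 44 bases from the start of the highest coding transcript. Whether the messages begin in these runs was not tested. Windows not shown also held such runs, of 10 bases in Eef1akmt2 and 8 bases in Eif2b2, beside 9 bases in Eif3l. Long runs were thus not limited to the genes shown.
Eif3f: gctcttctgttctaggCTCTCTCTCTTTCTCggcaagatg
Eif3m: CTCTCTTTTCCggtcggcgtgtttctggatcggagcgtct
Eif3l: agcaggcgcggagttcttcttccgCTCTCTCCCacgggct
Eif2b5: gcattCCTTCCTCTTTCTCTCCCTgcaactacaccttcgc

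Of the 65 genes, 49 had a start in the RefSeq table. A run of 7 or more pyrimidines from a C lay in the 40-base window of 11 of them (22.4%), against 18.6% of all 27025 listed promoters and 19.1% of 9939 promoters of expressed protein-coding genes. In the 300 bases from 250 before to 50 after the start, searched on both strands, TATAAA occurred in 4 of the 49 (8.16%), against 14.2% of all and 7.14% of expressed promoters. CACGTG, the E-box letters, occurred in 10 (20.4%), against 7.24% and 10.1%. CCGGAAG, letters bound by ETS factors, occurred in 15 (30.6%), against 9.12% and 18.3%. For these genes the start nearest the highest coding transcript was used and for the other promoters the first start listed. With the first start for these genes too, the pyrimidine run occurred in 12 (24.5%) and the counts for the 3 motifs were again 4, 10 and 15. These are descriptions of letters in a window, and the motifs were not tested.

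The cap-binding and helicase factors recruit the message. The highest of the 12 was Eif4g2, an eIF4G relative that lacks the eIF4E-binding part, at 421 and 465 TPM. It exceeded Eif4g1, the main scaffold, which was at 98.2 and 87.8 TPM, by 4.29-fold and 5.30-fold (log2 ratio 2.25 ± 0.22). Eif4g1 in turn exceeded its paralogue Eif4g3, at 14.6 and 13.5 TPM, by 6.73-fold and 6.50-fold (2.72 ± 0.04). Intervals were apart for both pairs. Eif4h, a cofactor of the helicase, was at 279 and 272 TPM.

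The helicase eIF4A comes from a pair of closely related genes. Eif4a1 was at 282 and 276 TPM and Eif4a2 at 129 and 136 TPM, a 2.19-fold and 2.02-fold difference (log2 ratio 1.07 ± 0.08). Eif4a3, the helicase of the exon junction complex, was at 211 and 197 TPM and lay below Eif4a1 by a log2 ratio of 0.45 ± 0.05. Intervals were apart for both. Of 4 other helicases that act in translation, all were expressed, with Ddx3x the highest at 65.2 and 59.9 TPM and Ddx6 the lowest at 5.31 and 4.26 TPM.

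Eif4e, the cap-binding protein, was at 90.6 and 97.5 TPM. Eif4e2, a cap-binding relative that represses translation, was at 86.7 and 79.4 TPM. This was the 1 pair of the 12 compared that did not meet the rule for a difference, with log2 ratios of 0.06 and 0.30. Eif4e3 was lower, at 10.7 and 10.1 TPM, and Eif4e exceeded it by a log2 ratio of 3.17 ± 0.14. Exons of Eif4e3 share 373 bases on the same strand with the protein-coding Gm20696, which was at 1.32 and 1 TPM. Eif4e1b, the oocyte form, had 0 counts in both libraries. A count of 0 allows up to 3, or 0.129 and 0.116 TPM for this gene. The authors' posterior means were 0.53 and 0.48 TPM, with intervals of 0.211 to 0.891 and 0.190 to 0.805 TPM, which lie above 0 although no read was assigned. Of 6 germ cell markers none was expressed, with summed levels of 1.99 and 1.84 TPM.

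**Figure D3:**
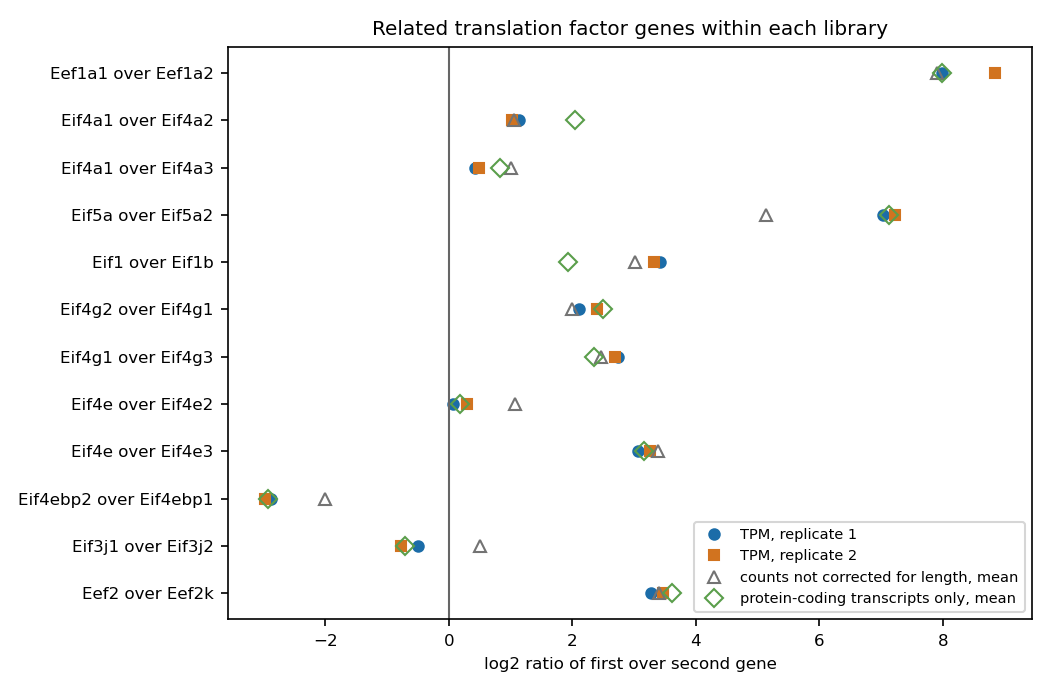
log2 ratio of the first over the second gene of 12 related pairs, from TPM in replicate 1 (circles) and replicate 2 (squares), with the mean of the libraries from counts not corrected for length (triangles) and from protein-coding transcripts only (diamonds). The libraries give the same sign for every pair, Eif4e over Eif4e2 lies nearest 0, and only Eif3j1 over Eif3j2 changes side, from -0.64 to 0.50 with counts.

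The binding proteins that sequester eIF4E when TOR is inactive differed widely in level. Eif4ebp1 was at 327 and 281 TPM, Eif4ebp2 at 44.5 and 35.4 TPM, and Eif4ebp3 at 2.30 and 1.81 TPM. The level of Eif4ebp3 rests on few and fractional counts (39.65 and 34.63). Its exons share 501 bases on the same strand with AC115631.1, a protein-coding gene with no value here. Eif4ebp1 exceeded Eif4ebp2 7.35-fold in replicate 1 and 7.93-fold in replicate 2 (log2 ratio of Eif4ebp2 over Eif4ebp1 -2.93 ± 0.08), with intervals apart. Eif4enif1, which shuttles eIF4E into the nucleus, was at 24.4 and 25.4 TPM. None of the 3 of these genes with enough counts was more than 1.5-fold apart between the libraries. Of 8 genes of TOR and MNK signalling to translation, all were expressed: Mknk2, a kinase of eIF4E, was highest at 74.8 and 62.8 TPM and Rptor, the scaffold of TOR complex 1, lowest at 6.44 and 5.56 TPM.

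Genes of the other steps of translation and its signalling had a lower median level, 20.8 TPM over 8 lists of 55 genes against 58.6 TPM for the translation factor genes. Of the 55, 54 were expressed, and 0 of 54 with enough counts were more than 1.5-fold apart between the libraries, beside the 5.61% of all genes. Highest and lowest here are by the mean of both libraries. Among 8 termination and recycling genes, Denr was highest at 64.9 and 74.2 TPM and the release factor gene Gspt2 lowest at 2.21 and 2.48 TPM. Among 6 poly(A) binding genes, the inhibitor Paip2 was highest at 212 and 237 TPM and Larp1, which binds pyrimidine-run messages, lowest at 10.8 and 9.61 TPM, though Paip2b was below it in replicate 2 (11.4 and 9.56 TPM). Among 9 mitochondrial translation factors, the elongation factor Tufm was highest at 188 and 173 TPM and the release factor Mtrf1 lowest at 8.79 and 8.28 TPM, though its relative Mtrf1l was below it in replicate 2 (10.9 and 7.74 TPM). Among 8 hypusine and diphthamide enzymes, Dohh was highest, and Dph2, which helps make the diphthamide of eEF2, was lowest at 12.6 and 9.90 TPM, though Dph6 was below it in replicate 1 (12.2 and 12.4 TPM). Among 5 selenocysteine genes, Pstk was highest at 66.0 and 72.3 TPM and Sepsecs lowest at 5.59 and 5.54 TPM.

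The 65 genes differed little between the libraries as a group. Over the 62 with enough counts, the median log2 ratio of replicate 2 over replicate 1 was 0.03, against -0.01 over all 12296 protein-coding genes measured this way. The SD over genes was 0.17 against 0.35. A ratio above 0 was seen for 39 and below 0 for 23, beside 46.9% of all genes above 0. Credibility intervals were apart between the libraries for 20 of the 62, beside 30.9% of all genes. The genes compared were not matched for level and include markers of neighbouring tissue that differed between the pools. The smaller spread therefore cannot be called particular to translation factor genes. After Eef1a2 and Eef1e1 the largest ratios were those of Eif3j2 (0.36), Eef1akmt2 (0.29), Eif4ebp2 (-0.29), Eif4g3 (-0.27) and Eef2k (-0.25).

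**Figure D4:**
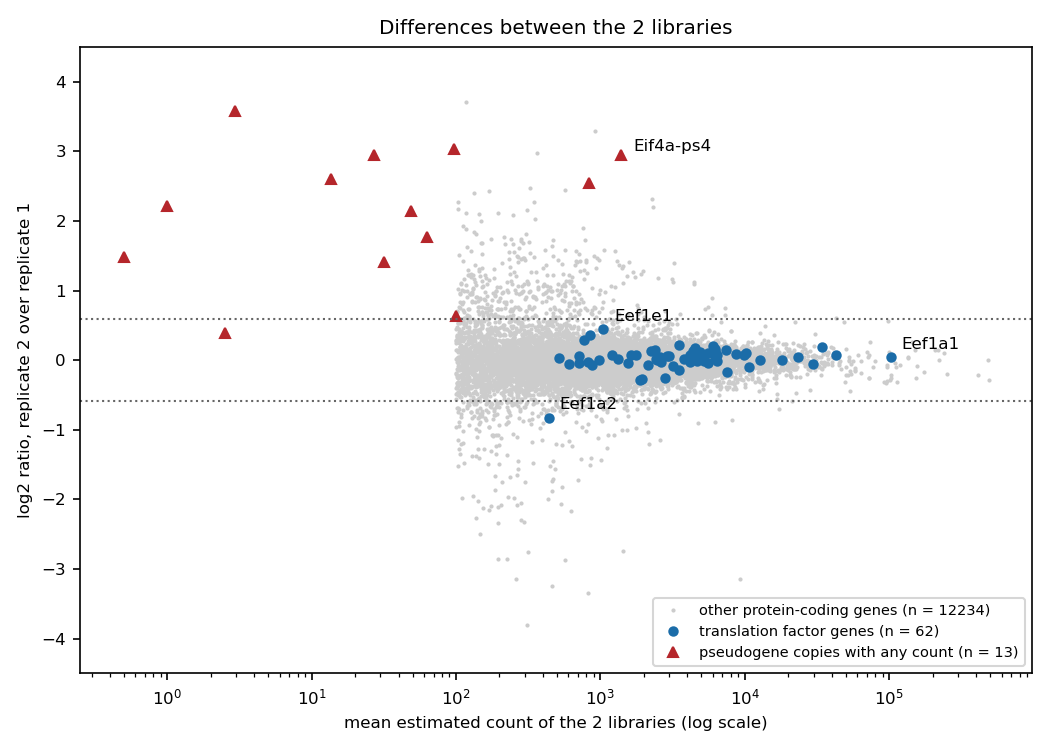
log2 ratio of replicate 2 over replicate 1 against mean estimated count (log scale) for 62 translation factor genes (blue), the other protein-coding genes with a mean of 100 counts or more (grey) and 13 pseudogene copies of the members (red), with dotted lines at 1.5-fold. The blue points lie along 0 except Eef1a2 below the lower line, and the red points all lie above 0, with Eif4a-ps4 at 2.95.

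Processed pseudogenes, copies of messages pasted back into the genome, behaved otherwise. A search of each member's highest coding transcript against annotated pseudogene transcripts (at least 90% identity over at least 50% of the member's transcript) found 14 copies of 6 members, with 6 from Eef1a1, 2 each from Eef1d, Eef1g and Eif4a1, and 1 each from Eif3e and Eif3m. Their summed level was 22.3 TPM in replicate 1 and 133 TPM in replicate 2, which is 0.210% and 1.25% of the members' sum. All 13 with any count were higher in replicate 2, but some held very few counts, such as Gm12848 with 0 and 1 and Gm5513 with 2 and 3.03. The same share over all processed pseudogenes with any count was not taken. Eif4a-ps4, 99.9% identical to Eif4a1 along the match, was at 10.0 and 75.1 TPM, and the Eef1a1 copy Gm13456 was at 6.75 and 38.4 TPM. The Eif3m copy Gm7658 was at 0.71 and 5.78 TPM. Of the 3 copies with a mean of 100 counts or more, 3 were over 1.5-fold higher in replicate 2, beside 68.5% of the 232 processed pseudogenes so measured, of which 0 were higher in replicate 1. The median log2 ratio of those 232 was 1.30, so the higher values in replicate 2 were not particular to these copies, and their source was not tested.

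These copies bear on the levels of their parents. With its copies added, Eif4a1 would be at 292 and 351 TPM, a log2 ratio between libraries of 0.21 where Eif4a1 alone gave -0.00029. Eef1a1 with its copies would be at 2648 and 2710 TPM (log2 ratio 0.06), and Eif3m at 165 and 176 TPM (0.14). Counts were exactly whole as deposited, with no tolerance, in both libraries for 36 of the 63 expressed members, beside 72.2% of expressed protein-coding genes, and a fractional count arises where reads are divided between genes. Exon bases of 18 of the 65 genes overlap a gene on the other strand and those of 13 a gene on the same strand.

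Much of the TPM of some members was assigned to transcripts that are not annotated as coding. Over all members 80.4% ± 0.141 of TPM (SD, n = 2) lay on protein-coding transcripts, 15.3% ± 0.635 on processed transcripts, 2.32% ± 0.404 on retained introns and 1.88% ± 0.0997 on transcripts marked for nonsense-mediated decay. By estimated counts, in which short transcripts weigh less, the coding share was 93.7% ± 0.141. For 43 of the 63 expressed genes over 90% of TPM was coding in both libraries. For 4 genes less than 50% was: Eif1, Eif1ax, Eif2ak2 and Eif4a2. By counts no gene was under 50% in both.

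Eif1 had the smallest coding share of TPM. Its 383-base processed transcript Eif1-202 took 43.3% ± 4.19 of the gene's TPM and its coding transcript Eif1-201, of 1322 bases, took 36.1% ± 2.71. Coding transcripts of Eif1 came to 460.1 and 489 TPM, and by counts they held 68.1% and 71.7% of the gene. With coding transcripts alone the excess of Eif1 over Eif1b was a log2 ratio of 1.93 in place of 3.37. In Eef1a1, the 505-base processed transcript Eef1a1-204 took 23.2% ± 0.325 of TPM, and coding transcripts came to 1990 and 1963 TPM.

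Other members had TPM on decay-marked and retained-intron transcripts. Eif4a2 had 18.8% ± 1.27 of its TPM on the decay-marked Eif4a2-217 and 15.9% ± 0.870 on the retained-intron Eif4a2-216, and its coding share was 64.3% and 60.6% by counts. With coding transcripts alone Eif4a1 exceeded Eif4a2 by a log2 ratio of 2.04. Eef1b2 had 36.6% ± 1.42 on the decay-marked Eef1b2-205, of 691 bases, beside 48.5% ± 1.05 on the coding Eef1b2-209, of 681 bases. Eif2a had 46.0% ± 5.47 on the decay-marked Eif2a-207 and 45.4% ± 7.54 on the coding Eif2a-201, so that the order of these transcripts changed between the libraries. In Eif1ax the 416-base retained-intron transcript Eif1ax-202 took 55.0% ± 0.297 of TPM, but coding transcripts held 93.0% and 92.9% of counts.

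**Figure D5:**
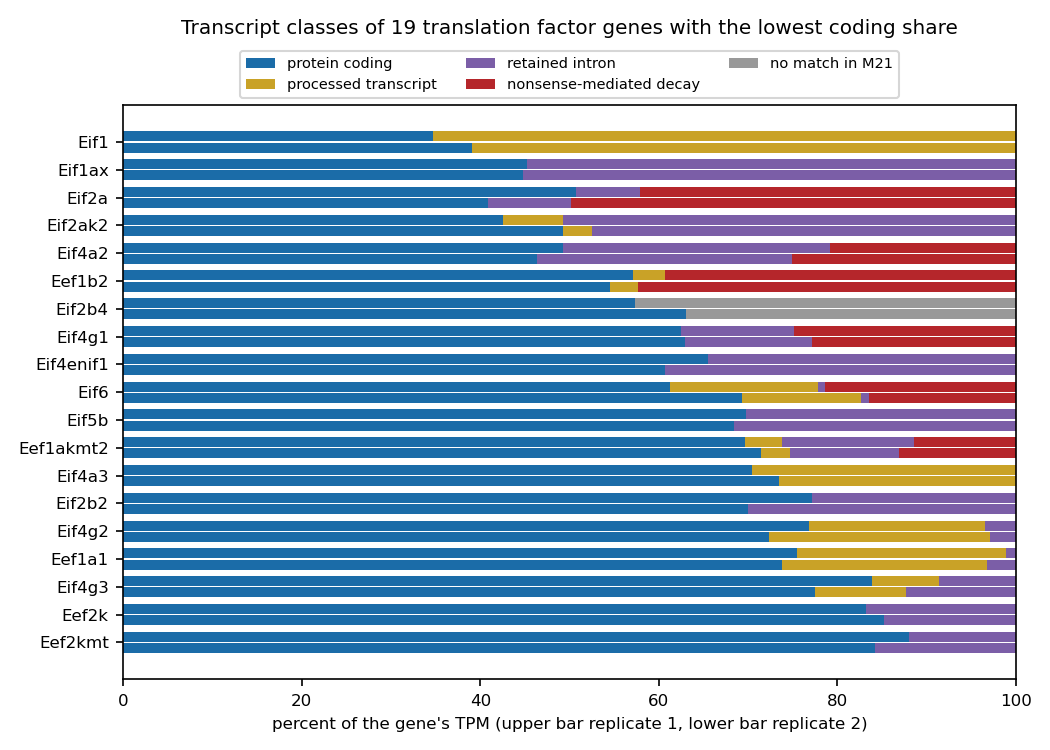
Share of each gene's TPM, in percent, on transcript classes of the annotation for the 19 translation factor genes with the lowest coding share, with the upper bar for replicate 1 and the lower for replicate 2. Eif1 has the smallest coding share, at 34.7% and 39.0%, and the class that takes the rest differs from gene to gene.

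Translation factor genes also host genes of small nucleolar RNAs, which guide modification of ribosomal RNA. Of the 65 genes, 9 (13.8%) held 17 such RNA genes on their own strand, against 231 of 12689 expressed protein-coding genes (1.82%). The hosts were Eef1b2, Eef2, Eif2ak3, Eif3a, Eif4a1, Eif4a2, Eif4g1, Eif4g2 and Eif5. Of the 17, 8 had 0 counts in both libraries. The highest in replicate 1 was Snora28 in Eif5, with 11 counts in each library (14.7 and 13.3 TPM), and the highest in replicate 2 was Gm24616 in Eif4a2, with 11 and 16 counts (10.3 and 13.5 TPM). The RNA used was longer than 200 nt, above the length of every one of these RNAs, so their levels in the tissue cannot be read from these counts.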

How the data were processed

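Total RNA of 2 pools of embryonic heart was sequenced, 1 library each, from 10 ng of RNA. The authors quantified each library separately on build mm10 with annotation M4, per the file headers and deposited notes. An aligner, a quantifier and a strand setting are not given in the sources used. Deposited values are estimated counts per gene or transcript, not normalized, and TPM computed by the authors over all rows, spike-ins included. The deposited bounds of the TPM credibility interval, treated as a signal, have no stated level, and a TPM value can lie outside them. The deposited transcript tables give the percent of a gene's TPM on each transcript. 42462 of 43346 mouse gene rows matched GENCODE M21 by identifier. Spike-in rows stayed out of library sizes.

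Ratios between libraries were taken from counts scaled by TMM (edgeR 4.0.16, a minimum of 10 counts per library) with 0.5 added, for genes with a mean of at least 100 counts, and a difference was counted above 1.5-fold. Pair ratios used TPM + 0.1. The scaling, ratio and 1.5-fold call were tested on simulated data with known changes, which they recovered. Those data held counting noise only. Variation between pools and read assignment error were not simulated, so the check covers the arithmetic alone. Copies were found with BLASTN (BLAST+ 2.17.0). DESeq2 1.42.0 size factors were an alternative, among others given in the closing section. The labels name no molecular identifiers, so reads may not be independent molecules, and intervals and the floor of 3 counts cover counting and assignment error only. With 2 libraries of 1 group no p-value was computed.

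Both values were given for the 3 highest genes and the lowest gene of each role and for the genes of 12 pairs, the others by range and count. Of the pathway lists, the highest and lowest gene were named. The members, roles, pairs and lists were chosen with earlier results of these data known. Transcripts, copies, promoter letters and small RNA hosts were named after their values were seen.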

Additional observations from a re-analysis of the deposited data

How the results depend on the processing

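No paired analysis was possible because there is 1 group. Without the count minimum 2 genes, Eef1a2 and Eef1akmt3, were over 1.5-fold apart, and 0 were at 2-fold. The members' share of the total was 1.24% by counts and 1.26% of protein-coding TPM. Counts not corrected for length gave log2 ratios of 1.00 for Eif4a1 over Eif4a3, 5.14 for Eif5a over Eif5a2, 3.01 for Eif1 over Eif1b, 2.00 for Eif4g2 over Eif4g1, 2.46 for Eif4g1 over Eif4g3, 1.07 for Eif4e over Eif4e2, 3.38 for Eif4e over Eif4e3, -2.00 for Eif4ebp2 over Eif4ebp1 and 0.50 for Eif3j1 over Eif3j2, the 1 reversal. By construction this setting raises long genes. Coding transcripts alone gave 2.04 for Eif4a1 over Eif4a2, 0.83 over Eif4a3, 1.93 for Eif1 over Eif1b, 2.50 for Eif4g2 over Eif4g1, 2.35 for Eif4g1 over Eif4g3 and 3.61 for Eef2 over Eef2k. Adding 1 to TPM gave 6.96 for Eif5a over Eif5a2 and 2.64 for Eif4g1 over Eif4g3, for which posterior means gave 2.63. Posterior means gave a coding share of 80.2%. Chosen after seeing the data, adding pseudogene copies gave 1.27 for Eif4a1 over Eif4a2 and 0.65 over Eif4a3, and counts gave a coding share of 93.7%. Of the other 79 planned and 2 added values, counts of genes stayed within 1.5 times the reported count. The median log2 ratio was held against the SD over genes of 0.17, which is not a spread between libraries, and stayed within it. The rest stayed within the SD between libraries. With 2 libraries, leaving 1 out moves a mean by less than that SD by construction, so those values cannot show stability. Of the 65 genes, 61 reached 5 TPM and 64 reached 0.1 TPM in both libraries. With 2 libraries an SD rests on 1 difference, and genes with fractional counts carry assignment error beyond it.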
